A study of Homo sapiens with 14 samples.

Results

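The genes described here are the receptors for lysophosphatidic acid, LPA, together with the enzyme that makes it outside the cell and a pair of enzymes that break it down. They are LPAR1, LPAR2, LPAR3, LPAR5, LPAR6, ENPP2, PLPP1 and PLPP3. They were chosen by gene symbol, through probe sets annotated with exactly 1 of these symbols, and with the intensities of these arrays already in view. Their values are therefore given as a description. Where the fit over all genes called one of them, this is stated beside the share of all genes called, with no p-value, and nothing rests on it. Of the 8 genes, 7 had such a probe set among the 18372 genes measured, each gene with 1 probe set, and LPAR5 was not analysed here.

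The arrays measured the total RNA of cultured human prostate cancer lines and were made to compare lines that form bone metastases with lines that do not. Each of 7 lines was measured on 2 arrays, which the labels number as replicates. The lines labelled bone metastatic were PC3-ML (Clone 1) and PC3-ML (Clone 3), the parental PC3-ML, and PC3-N(PDGFRα), with 8 arrays in all. The lines labelled otherwise were PC3-N, DU-145 (PDGFRα) and DU-145, with 6 arrays. PC3 and DU-145 are established lines grown from metastases of different prostate carcinomas, and PC3-N and PC3-ML are sublines of PC3. PC3-N(PDGFRα) and DU-145 (PDGFRα) carry added α-receptor for platelet-derived growth factor, and no line that went through the same steps without the receptor is among the groups. The growth medium of every line was DMEM that contained fetal bovine serum and gentamicin. Each clone is 1 line, so a difference between a clone and PC3-ML describes that clone. The labels do not say whether the arrays of a line came from separate cultures, so the errors below measure the spread between these arrays, which may be technical.

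LPA is a small lipid in blood and tissue fluid that acts as a growth and motility signal. Autotaxin, the secreted enzyme encoded by ENPP2, makes it from lysophosphatidylcholine, and lipid phosphate phosphatases in the plasma membrane, PLPP1 and PLPP3 among them, remove its phosphate and end the signal. Its receptors are coupled to G proteins. LPAR1, LPAR2 and LPAR3 belong to the EDG family, while LPAR4, LPAR5 and LPAR6 are related to purinergic receptors. Signals through these receptors reach calcium stores, YAP and serum response factor, and they change cell shape, movement and division.

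The genes whose line means lay furthest apart were LPAR3, LPAR1 and PLPP3, and the 250 bases upstream of their annotated starts are shown because these are the sequences next to the starts of the genes the results turn on. The sequences are from RefSeq on GRCh38.p14, are written 5′ to 3′ on the gene's strand, and carry matches to the searched motifs in capitals. The motifs were the GC box GGGCGG, the TATA box TATAAA, the AP-1 site TGANTCA, the TEAD site GGAATG and the CCAAT box CCAAT, each searched on both strands. All 3 genes lie on the minus strand, and LPAR1 has 6 annotated windows, of which the most upstream is printed.
LPAR3, chr1:84893207-84893456: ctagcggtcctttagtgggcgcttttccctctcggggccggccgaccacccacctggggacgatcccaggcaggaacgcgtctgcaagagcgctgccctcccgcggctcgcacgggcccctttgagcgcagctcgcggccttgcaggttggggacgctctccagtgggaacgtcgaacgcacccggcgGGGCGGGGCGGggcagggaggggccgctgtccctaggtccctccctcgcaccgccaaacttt
LPAR1, chr9:111038999-111039248: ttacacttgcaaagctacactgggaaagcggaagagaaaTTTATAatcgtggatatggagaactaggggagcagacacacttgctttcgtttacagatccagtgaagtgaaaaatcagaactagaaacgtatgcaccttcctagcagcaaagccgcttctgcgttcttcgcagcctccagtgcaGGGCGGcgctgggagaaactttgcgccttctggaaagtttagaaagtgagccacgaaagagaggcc
PLPP3, chr1:56579564-56579813: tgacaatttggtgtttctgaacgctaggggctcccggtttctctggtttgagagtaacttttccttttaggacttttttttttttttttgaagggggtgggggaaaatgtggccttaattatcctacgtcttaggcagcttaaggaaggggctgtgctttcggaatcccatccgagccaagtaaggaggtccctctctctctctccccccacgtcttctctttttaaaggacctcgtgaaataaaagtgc
The LPAR3 window was 71.2% G and C, held 27 CpG pairs and had 2 GC boxes that overlap by 1 base. The printed LPAR1 window was 48.4% G and C with 11 CpG pairs, and held 1 GC box and 1 TATA box on the opposite strand. The other LPAR1 windows ran from 36.4% to 84.4% G and C with 2 to 39 CpG pairs. They held 0 to 5 GC boxes and no TATA box. The PLPP3 window was 46% G and C with 7 CpG pairs, and none of the searched motifs occurred in these letters. Among 35116 promoter windows of the same length, the median was 58% G and C with 11 CpG pairs, 42.6% held a GC box and 10.7% held a TATA box. An AP-1 site was present in 6.57%, a TEAD site in 11.9% and a CCAAT box in 32% of those windows. Among the other genes, the LPAR2 window was 78.4% G and C with 3 GC boxes and 1 AP-1 site, the LPAR6 window was 42.8% with no match, and the LPAR5 window was 55.2% with 2 TEAD sites. The table gave promoters for 6 of the 8 genes, and those of ENPP2 and PLPP1 are named only. A match describes letters and does not show that a factor binds there.

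Intensities below are the deposited array values on a linear scale, which ran between 18.5 and 8654, with array medians between 29.9 and 31.6. The number of arrays, 2 for each line, limits the precision. As a guide to background, 357 probe sets of olfactory receptor genes, most of which are silent outside the nose, had a median of 21.5 to 22.6 per array and a 95th percentile of 26.4 to 28.7. Differences were taken on the log2 scale between line means, with the standard error, SE, from limma fitted to all genes. Levels of different genes are not set against each other, because probe sets differ in brightness.

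The added receptor and known marks of the lines were read first. PDGFRA, the gene of the added receptor, read 817.4 and 850.4 in PC3-N(PDGFRα), against 103.3 and 109.4 in PC3-N. In DU-145 (PDGFRα) it read 129.6 and 92.2, against 28.2 and 25.5 in DU-145. PC3-ML (Clone 1) read 31 and 26.5 and PC3-ML (Clone 3) 130.1 and 125.5, against 104.1 and 155.5 in PC3-ML. CTNNA1, the α-catenin gene known to be lost in PC3 cells, had line means of 23.1 to 24 in the 5 PC3 lines. Its arrays read 219 and 138 in DU-145 (PDGFRα) and 282.2 and 157.1 in DU-145. Summed intensity of 5 epithelial markers ran between 1205 and 2994 over the lines, and 4 or 5 of them were above background in every line. Across genes, arrays of one line correlated at 0.989 to 0.996, arrays of different PC3 lines at 0.972 to 0.993, and arrays of PC3 with those of DU-145 lines at 0.926 to 0.948.

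LPAR1, a widely expressed LPA receptor that couples to several G protein families, was above background on all 14 arrays and higher in every PC3 line than in either DU-145 line. In RNA from whole cultures, fewer cells with a transcript and less transcript per cell cannot be told apart. It read 318 and 319.1 in PC3-ML (Clone 1), 249.7 and 232.5 in PC3-ML (Clone 3), and 253.6 and 268.9 in PC3-ML. It read 245.5 and 245.1 in PC3-N(PDGFRα), against 268.8 and 278.7 in PC3-N. In the DU-145 pair it read 91 and 96.6 in DU-145 (PDGFRα), against 124.6 and 126 in DU-145. The arrays of PC3 lines and of DU-145 lines did not overlap, and neither did the arrays of the 2 DU-145 lines. The order of the line means was PC3-ML (Clone 1), PC3-N, PC3-ML, PC3-N(PDGFRα), PC3-ML (Clone 3), DU-145 and DU-145 (PDGFRα). Steps between lines are also given in standard deviations between arrays of a line, pooled for each gene over the 7 lines. The step between PC3-ML (Clone 3) and DU-145 was 0.94 on the log2 scale, or 21 standard deviations. The step between the DU-145 lines was 0.42, or 9.31 standard deviations. PC3-N(PDGFRα) and PC3-ML (Clone 3) lay 0.57 standard deviations apart and were not separated, and PC3-N and PC3-ML lay 1.51 apart.

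LPAR2, the receptor of the same family known for binding scaffold proteins through its tail, stayed in a narrow band. It was above background on all 14 arrays, which ran from 41.3 to 53.3 with a median of 44.3. The highest array was 1 of the pair of PC3-ML, whose values were 53.3 and 45.7, and the lowest were those of PC3-ML (Clone 1), 41.7 and 41.3. Line means spanned 0.25 on the log2 scale, and no step between neighbouring lines exceeded 1.24 standard deviations, so the order was not resolved.

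LPAR3, the receptor that prefers unsaturated LPA species, had the widest span of the 7 genes, 2.48 on the log2 scale or 5.59-fold between the highest and the lowest line. It read 125.9 and 132 in PC3-ML (Clone 1), 23.4 and 22.7 in PC3-ML (Clone 3), and 24.7 and 26.6 in PC3-ML. In the receptor pair of PC3-N it read 90.8 and 74.7 in PC3-N(PDGFRα), against 52.6 and 36.1 in PC3-N. It read 24.9 and 26.1 in DU-145 (PDGFRα), against 26.8 and 25.6 in DU-145. The signal was above background on 6 of 14 arrays, those of PC3-ML (Clone 1), PC3-N(PDGFRα) and PC3-N, and the arrays of these 3 lines overlapped neither each other nor the rest. The step to the next lower line was 3.81 standard deviations from PC3-ML (Clone 1), 5.42 from PC3-N(PDGFRα) and 4.32 from PC3-N. That pooled deviation was 0.17 on the log2 scale and includes the lines at background. The arrays of PC3-N, 52.6 and 36.1, spread more widely than this. Against its own spread, the steps on either side of PC3-N are therefore smaller than these multiples. The last 4 lines, DU-145, PC3-ML, DU-145 (PDGFRα) and PC3-ML (Clone 3), were at background, with at most 0.86 standard deviations between neighbours. A fold change against a line at background understates the true difference by an unknown amount. Among the lines labelled bone metastatic were both the highest line, PC3-ML (Clone 1), and the lowest, PC3-ML (Clone 3).

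An endothelial marker, PECAM1, was highest in PC3-ML (Clone 1) and PC3-N(PDGFRα), as LPAR3 was. In PC3-N its arrays overlapped those of PC3-ML and PC3-ML (Clone 3), whereas those of LPAR3 did not. PECAM1, an adhesion molecule of endothelial cells and platelets, read 80.2 and 100.3 in PC3-ML (Clone 1) and 104.6 and 67.1 in PC3-N(PDGFRα), against 36.9 to 55.1 in the other PC3 lines and 20.7 to 23.2 in the DU-145 lines. PECAM1 was the 1 marker of 4 on the endothelial list above background in the PC3 lines, and none was in the DU-145 lines; VWF, CDH5 and TEK were near background throughout. The summed list read 157.6 in PC3-ML (Clone 1), 117.5 in PC3-ML (Clone 3), 113.7 in PC3-ML, 155.2 in PC3-N(PDGFRα) and 118.3 in PC3-N, against 92.4 in DU-145 (PDGFRα) and 91.7 in DU-145. Its part in the LPAR3 values was not tested. The summed fibroblast and leukocyte lists ran between 146.9 and 156.8 and between 117.9 and 129.5 over the lines.

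LPAR6, the receptor that acts with the phospholipase LIPH in human hair growth, was dim. Its arrays ran from 21.9 to 34.4 with a median of 27.1, and 6 of 14 were above background. PC3-ML read 31.2 and 30.8, against 34.4 and 27.4 in PC3-N, whose first array was the highest of all. DU-145 (PDGFRα), at 21.9 and 24.3, and DU-145, at 23.7 and 24, were among the lowest. No step between neighbouring lines exceeded 1.23 standard deviations. LPAR4, the receptor not among the 8 genes, read 20.7 to 23.4 and was above background on 0 of 14 arrays.

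ENPP2, which encodes autotaxin, was at background in every line. It was above the background guide on 0 of 14 arrays, which ran from 21.1 to 26.4 with a median of 21.5. DU-145 (PDGFRα) gave the highest pair, 26.4 and 23, against 21.3 and 22.4 in DU-145. All other arrays lay between 21.1 and 22.4, so no ENPP2 signal was detectable in the cultured cells by this probe set, and the values do not show that the transcript was absent.

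The phosphatases were measured above background on all 14 arrays. PLPP1 ran from 30.9 to 40.9 with a median of 34.7, and its line means spanned 0.36 on the log2 scale. It read highest in DU-145 (PDGFRα), 40.9 and 39, followed by DU-145, 35.7 and 38.6, and PC3-ML (Clone 3), 35.5 and 37.4. It read 31.5 and 30.9 in PC3-N(PDGFRα), against 32.5 and 33.4 in PC3-N. No step between neighbouring lines exceeded 2.01 standard deviations.

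PLPP3 spanned 0.75 on the log2 scale, and its order differed from that of LPAR3. It read 49.1 and 53 in PC3-ML (Clone 1), 84.4 and 79.7 in PC3-ML (Clone 3), and 78.1 and 72 in PC3-ML. It read 51 and 51.4 in PC3-N(PDGFRα), against 61.6 and 54.7 in PC3-N, and 45.6 and 51.9 in DU-145 (PDGFRα), against 56.8 and 53 in DU-145. The arrays of PC3-ML (Clone 3) and PC3-ML were above those of all other lines, and the step from PC3-ML to PC3-N was 0.37 on the log2 scale, or 4.19 standard deviations. PC3-ML (Clone 3) and PC3-ML were 1.47 standard deviations apart, and the other 5 lines were not separated step by step.

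**Figure D1:**
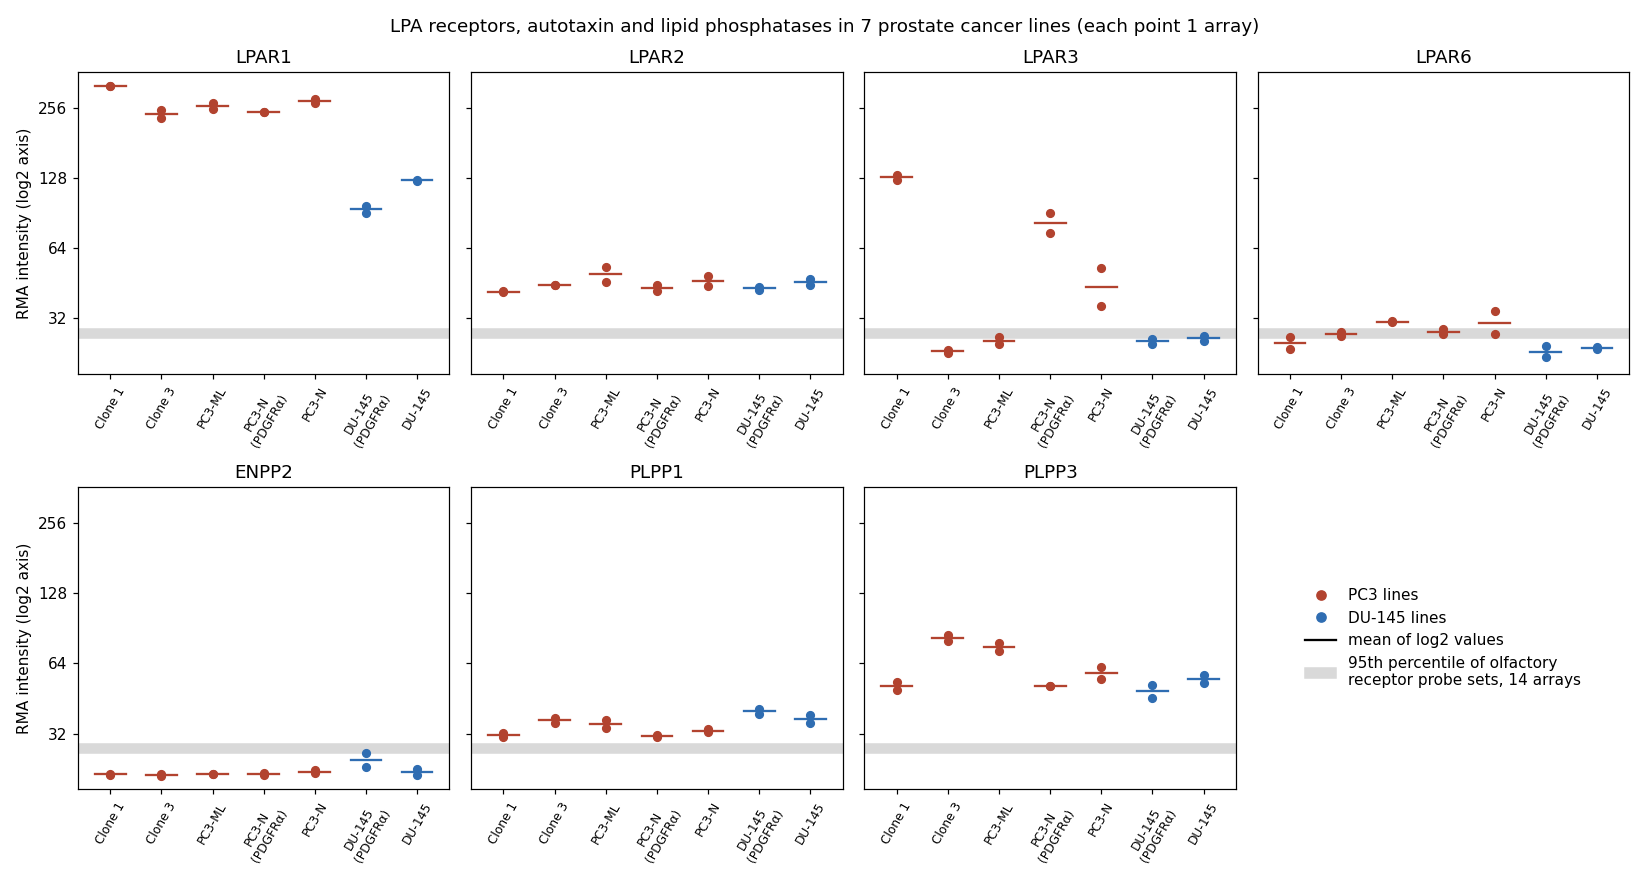
Array intensity (log axis) of the 7 genes in each of the 7 lines, with 1 point for each array and a bar at the line mean; heights should be compared within a gene and not between genes. LPAR3 stands above the other lines in PC3-ML (Clone 1), PC3-N(PDGFRα) and PC3-N, and LPAR1 separates the PC3 lines from the DU-145 lines.

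LPAR1 was higher in the 5 PC3 lines than in the 2 DU-145 lines by 1.30 on the log2 scale, or 2.46-fold (SE 0.03). The errors in this comparison come from the spread between the 2 arrays of a line and not from the spread between lines. LPAR3 was higher by 0.91 (SE 0.09), but the mean joins 3 PC3 lines above background with 2 at it, and both DU-145 lines were at it. PLPP3 was higher by 0.27 (SE 0.05), and PLPP1 was at -0.21 (SE 0.04). LPAR6 was at 0.27 (SE 0.06), with 6 of 10 PC3 arrays and 0 of 4 DU-145 arrays above background, so its size is not known. ENPP2 was at -0.11 (SE 0.04) at background, and LPAR2 was at 0.01 (SE 0.05). Of all genes, 38.8% were called in this comparison by limma at an adjusted p under 0.05, 22.3% higher and 16.5% lower, and 6 of the 7 LPA genes were among them, 4 higher and 2 lower. The genes were chosen with these values in view, and nothing is read from that count here or in the comparisons below. With the fit made on 7 line means in place of 14 arrays, 1 of the 7, LPAR1, was called. The ENPP2 call was lost in 12 of 14 fits that left out 1 array.

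Added PDGFRα in PC3-N went with a higher LPAR3 level, by 0.92 on the log2 scale (SE 0.15, n = 2 arrays each), or 1.89-fold. This SE rests on the spread pooled over all lines, including those where LPAR3 was at background. The LPAR3 arrays of PC3-N spread more widely, so the SE understates the error of this difference. The other 6 genes had differences below 0, with LPAR1 at -0.16 (SE 0.06), PLPP3 at -0.18 (SE 0.08), LPAR6 at -0.13 (SE 0.10), LPAR2 at -0.09 (SE 0.08), PLPP1 at -0.08 (SE 0.06) and ENPP2 at -0.03 (SE 0.06). Of all genes, 2.2% were called, 1.52% higher and 0.68% lower, and of the 7 LPA genes 1 was, LPAR3. That call was lost without replicate 1 of PC3-N(PDGFRα), and the LPAR3 difference ran between 0.65 and 1.19 when each of the 4 arrays was left out in turn.

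In DU-145 the added receptor went with less LPAR1 signal. LPAR1 was lower in DU-145 (PDGFRα) than in DU-145, by a log2 difference of -0.42 (SE 0.06, n = 2 arrays each). LPAR3, at background in both lines, was at -0.04 (SE 0.15), PLPP3 at -0.17 (SE 0.08), ENPP2 at 0.17 (SE 0.06) and PLPP1 at 0.11 (SE 0.06). Of all genes 0.31% were called, 0.0653% higher and 0.245% lower, and 1 of the 7, LPAR1, was among them. The LPAR1 call was lost in 3 of the 4 fits that left out 1 array, all but the one without replicate 2 of DU-145, and its difference ran between -0.46 and -0.37 in them. It was lost too under quantile normalization, where the difference was -0.33. Between the cell lines, the LPAR3 difference in PC3-N minus that in DU-145 was 0.96 (SE 0.21) and the LPAR1 difference 0.26 (SE 0.08). The LPAR3 error again rests on the pooled spread, and the arrays of PC3-N spread more widely. None of the 7 was called for this difference, where 0.533% of all genes were, 0.419% higher and 0.114% lower, although LPAR3 was called without replicate 1 of PC3-N.

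The subline PC3-ML had less LPAR3 and more PLPP3 signal than PC3-N. The LPAR3 difference was -0.76 (SE 0.15), with PC3-ML at background, and the PLPP3 difference 0.37 (SE 0.08). Here too the LPAR3 error is understated, because the arrays of PC3-N spread more widely than the pooled value. The other genes lay between -0.07, for LPAR1, and 0.10, for LPAR2 and PLPP1 alike. Of all genes 0.348% were called, 0.218% higher and 0.131% lower, and none of the 7 was. LPAR3 was called in the fit without replicate 2 of PC3-N and in the fit that left out dim probe sets, and its difference ran between -1.04 and -0.49 when each array was left out in turn.

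LPAR3 was high in one clone of PC3-ML and at background in the other. PC3-ML (Clone 1) had more LPAR3 signal than PC3-ML by 2.33 on the log2 scale (SE 0.15, n = 2 arrays each), or 5.02-fold, against a parental level at background. LPAR1 was higher by 0.29 (SE 0.06) and PLPP3 was at -0.56 (SE 0.08). LPAR6 was at -0.31 (SE 0.10), with PC3-ML (Clone 1) at background, LPAR2 at -0.25 (SE 0.08), PLPP1 at -0.16 (SE 0.06) and ENPP2 at -0.01 (SE 0.06). Of all genes 13.8% were called, 9.01% higher and 4.77% lower, and 3 of the 7 were: LPAR1 and LPAR3 higher and PLPP3 lower. The LPAR3 and PLPP3 calls were kept in all 4 fits that left out 1 array, and the LPAR1 call was lost without replicate 1 of PC3-ML or replicate 2 of PC3-ML (Clone 1). It was lost too under quantile normalization, where the LPAR1 difference was 0.11. Epithelial markers were also higher in PC3-ML (Clone 1): 3 of 5 were called, their median difference was 0.92, and their summed intensity was 2961, against 1205 in PC3-ML. EPCAM, an epithelial adhesion molecule, read 1747 and 1522 in PC3-ML (Clone 1), against 450 and 483.5 in PC3-ML. The part of these markers in the LPA gene values was not tested.

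For PC3-ML (Clone 3) against PC3-ML, all 7 differences lay between -0.17, for LPAR6 (SE 0.10), and 0.13, for PLPP3 (SE 0.08), with LPAR3 at -0.15 (SE 0.15) and LPAR1 at -0.12 (SE 0.06). Of all genes 8.1% were called, 5.2% higher and 2.9% lower, and none of the 7 was. With quantile normalization LPAR1 was called, at -0.25. Both clones were set against the same PC3-ML arrays, so their differences are not independent of each other.

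For LPAR1, LPAR3 and PLPP3 the line means of the lines labelled bone metastatic overlapped those of the other lines. ENPP2 was at -0.09 (SE 0.05) and at background throughout. The differences were 0.84 for LPAR1 (SE 0.36, here from the spread between lines, n = 4 and 3 lines), 0.70 for LPAR3 (SE 0.68) and 0.24 for PLPP3 (SE 0.20), and the other 4 genes lay between -0.13 and 0.12. The other lines hold both DU-145 lines and 1 PC3 subline, PC3-N. This contrast and that of PC3 with DU-145 use the same 7 lines, and only PC3-N changes side between them. Of all genes 0% were called by limma, with 2250 at an unadjusted p under 0.05, and none of the 7 LPA genes was.

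**Figure D2:**
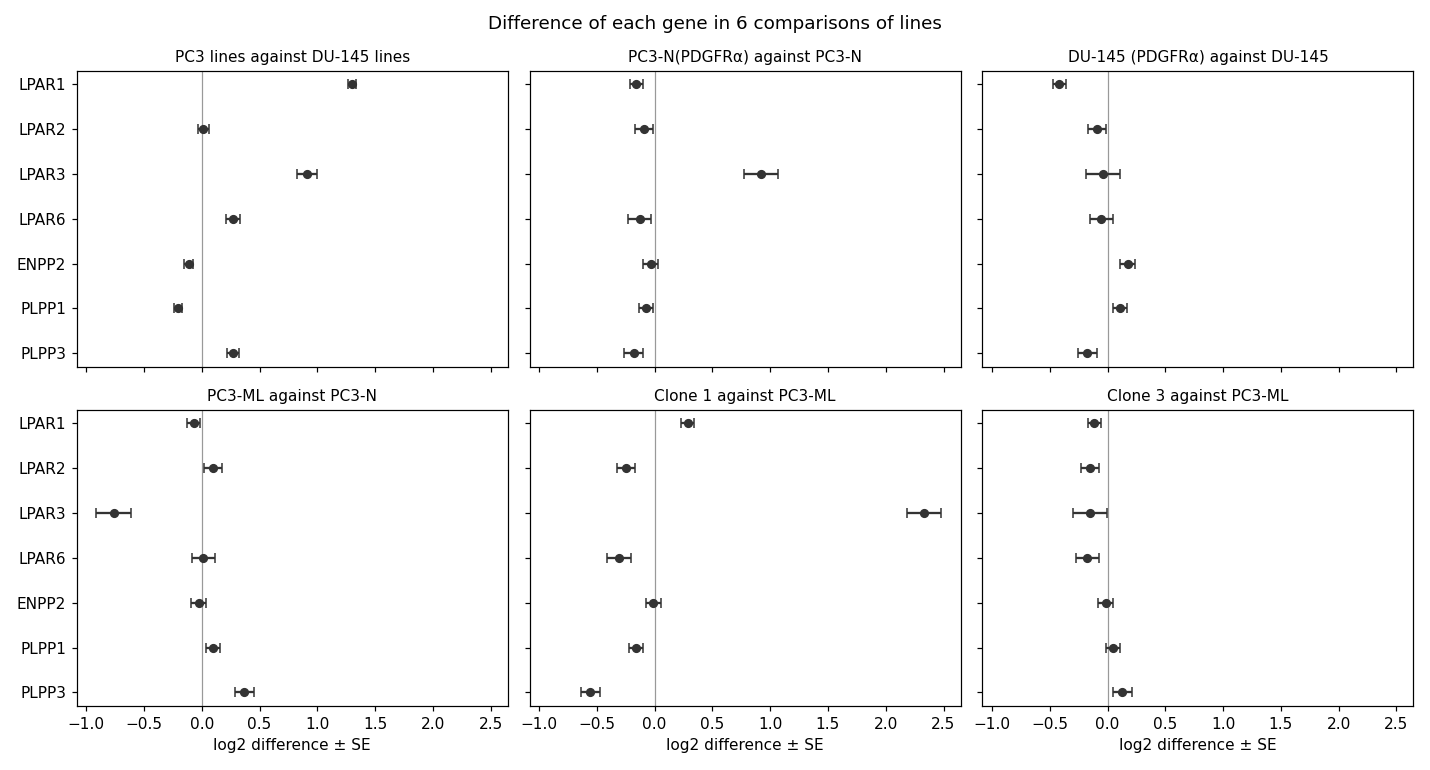
Differences of the 7 genes on the log2 scale, as points with bars of 1 standard error, drawn as the first-named group minus the second. The difference between the receptor effects and the contrast of bone metastatic with other lines are not drawn. LPAR3 lies furthest from 0 in PC3-ML (Clone 1) against PC3-ML, at 2.33, while every PC3-ML (Clone 3) difference lies between -0.17 and 0.13.

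LPAR1 and LPAR3 were the genes with a span over 1 on the log2 scale, and for each the 3 genes with the most similar profile were found as those with the smallest root mean square difference of centred line means over the 7 lines. For LPAR1 these were VCL, encoding the focal adhesion protein vinculin, at 0.067, HK2, a hexokinase of glycolysis, at 0.097, and BHLHE40, a transcriptional repressor, at 0.098. The VCL line levels, as geometric means, were 377.7 in PC3-ML (Clone 1), 328.6 in PC3-ML (Clone 3), 342.9 in PC3-ML, 307 in PC3-N(PDGFRα) and 371.9 in PC3-N, against 124.2 in DU-145 (PDGFRα) and 158.8 in DU-145. VCL was thus high in the PC3 lines and lowest in DU-145 (PDGFRα), as LPAR1 was. For LPAR3 the nearest genes were CST1, encoding a secreted cysteine protease inhibitor, at 0.33, KIF5C, a kinesin motor, at 0.41, and KRT75, a keratin, at 0.43, so its profile had no match as near as those of LPAR1. CST1 read 90.9 in PC3-ML (Clone 1), 23.9 in PC3-ML (Clone 3), 26.7 in PC3-ML, 84.2 in PC3-N(PDGFRα) and 26 in PC3-N, against 26.5 in DU-145 (PDGFRα) and 29.9 in DU-145. It shared the 2 highest lines with LPAR3 and lacked the intermediate level in PC3-N. KRT75 read 129.8 in PC3-ML (Clone 1), 39.2 in PC3-ML (Clone 3), 38.4 in PC3-ML, 111.6 in PC3-N(PDGFRα) and 106.2 in PC3-N, against 28.1 in DU-145 (PDGFRα) and 26.1 in DU-145. These profiles were taken over the 7 line means, which share arrays and scaling, and are a description.

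**Figure D3:**
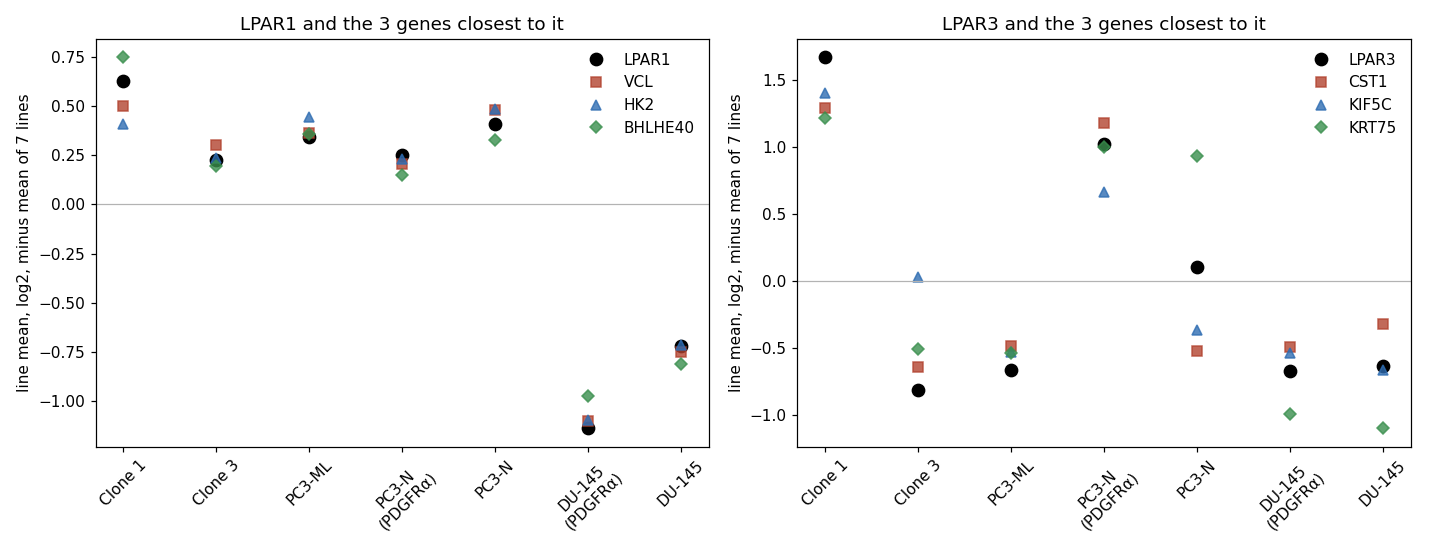
Line levels of LPAR1 and LPAR3, each centred on its mean over the 7 lines on the log2 scale, with the 3 genes nearest to each. VCL, HK2 and BHLHE40 follow LPAR1 closely, at 0.067 to 0.098 root mean square, while CST1, KIF5C and KRT75 follow LPAR3 at 0.33 to 0.43.

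Other genes of the pathway were listed by role, and 54 of 61 listed genes were measured. AGPAT1, AGPAT3, ENPP7, S1PR3, SPHK2 and MRTFA were among those not analysed here. In PC3 lines against DU-145 lines, limma called 23 of the 54, 13 higher and 10 lower, where 38.8% of all genes were called, and the median difference of the 54 was -0.02 against -0.01 for all genes. After quantile normalization 10 were called higher and 14 lower, and with the fit on 7 line means 13 were called, 5 higher and 8 lower. The errors and p-values below for PC3 against DU-145 lines come from the spread between arrays of a line, not between lines. All lines on a side derive from the same cell line, so these p-values describe the lines measured only.

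Of 10 enzymes that make LPA or its precursors, 2 were higher in PC3 lines: AGK, the mitochondrial acylglycerol kinase, by 0.42 (SE 0.05, limma adjusted p = 0.00012), and GPAT4, a glycerol-3-phosphate acyltransferase, by 0.34 (SE 0.08, adjusted p = 0.0051). Of 7 enzymes that consume LPA, AGPAT5, which acylates it to phosphatidic acid, fell by 0.76 (SE 0.08, adjusted p = 2.7e-05) and PLPP4, a lipid phosphatase, fell by 0.44 (SE 0.09, adjusted p = 0.0024). ACP6, an LPA phosphatase of mitochondria, was higher by 0.42 (SE 0.15, adjusted p = 0.048), and its call was lost in 11 of 14 fits that left out 1 array. Among 5 relatives of autotaxin, ENPP1, which makes pyrophosphate outside cells, was higher by 0.90 (SE 0.07, adjusted p = 2.5e-06), and ENPP4 fell by 0.44 (SE 0.05). ENPP5 was called lower, but 0 of 10 PC3 arrays and 1 of 4 DU-145 arrays were above background, and its call was lost when dim probe sets were left out. None of 5 measured genes for sphingosine-1-phosphate receptors and kinases was called by limma. At an unadjusted p under 0.05 was 1 of the 5, against 8376 of all 18372 genes. LPAR4 was at 0.04 (adjusted p = 0.46).

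Among 7 G protein α-subunits 5 were called, 3 higher and 2 lower, where 38.8% of all genes were called. The lists were chosen with earlier results of these data known, and nothing is read from the counts by list. GNAQ, a Gq α-subunit of the kind through which LPA receptors raise calcium, differed most and was lower in PC3 lines, by a log2 difference of -3.43 (SE 0.11, limma adjusted p = 9.2e-09). Its line means were 27.5 to 50.8 in the 5 PC3 lines, against 374.3 and 393.2 in the 2 DU-145 lines. Of the 10 PC3 arrays 7 were above background, so the GNAQ difference is a low estimate. GNA11, another Gq α-subunit of the list, was not called, at 0.18 (SE 0.08, limma adjusted p = 0.13). GNA13, a G protein of the G12 family, was higher by 0.88 (SE 0.05) and GNAI2, an inhibitory G protein, by 0.72 (SE 0.10). Of 13 genes for YAP and serum response factor partners and their targets, 7 were called, 3 higher and 4 lower. VCL was higher by 1.29 (SE 0.10, limma adjusted p = 4.8e-06) and WWTR1, which encodes the YAP relative TAZ, by 0.93 (SE 0.14). EGR1, an immediate early gene, fell by 1.09 (SE 0.09). ANKRD1, a YAP target, fell by 1.79 (SE 0.15), a low estimate because 2 of 10 PC3 arrays were above background. AGK, GPAT4, GNAI2 and ACP6 were not called with the fit on line means.

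In the comparisons within a cell line fewer of the 54 genes were called. In PC3-N(PDGFRα) against PC3-N, 1 of the 54 was called, where 2.2% of all genes were, and it was lost in 3 of the 4 fits that left out 1 array. Limma called none of the 54 in DU-145 (PDGFRα) against DU-145, in the difference between the receptor effects or in PC3-ML against PC3-N. Of all genes, 0.31%, 0.533% and 0.348% were called there. At an unadjusted p under 0.05 were 5, 8 and 9 of the 54, against 2386, 2273 and 1930 of all 18372 genes. Limma called none over line means of bone metastatic against other lines, where 0% of all genes were called. There 10 of the 54 and 2250 of all 18372 genes had an unadjusted p under 0.05.

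In PC3-ML (Clone 1) against PC3-ML 9 of the 54 were called, 7 higher and 2 lower, where 13.8% of all genes were, and quantile normalization gave 4 higher and 5 lower. Of the 7 G protein α-subunits 2 were higher, GNAI3, an inhibitory G protein, by 0.45 (SE 0.08, limma adjusted p = 0.0045) and GNAI2 by 0.60 (SE 0.17). A coactivator of serum response factor, MRTFB, was higher by 0.58 (SE 0.13). Among the LPA-producing enzymes AGK fell by 0.56 (SE 0.09, adjusted p = 0.0030) and GPAT3 by 0.64 (SE 0.16), while GPAM was higher by 0.45 (SE 0.13). AGK read 70.4 and 67 in PC3-ML (Clone 1), against 100 and 102.7 in PC3-ML. Leaving out 1 array left between 3 and 6 of the 54 called, and of the named genes AGK and GNAI3 were called each time. The calls of GNAI2 and GPAM were lost in all 4 of these fits and under quantile normalization, and those of GPAT3 and MRTFB in 3 of 4. The lowest count came without replicate 1 of PC3-ML (Clone 1), and 4 were called without its replicate 2 or without replicate 1 of PC3-ML.

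In PC3-ML (Clone 3) against PC3-ML 5 of the 54 were called, 3 higher and 2 lower, where 8.1% of all genes were. None of the 7 G protein α-subunits was called by limma. At an unadjusted p under 0.05 were 3 of the 7, against 3792 of all 18372 genes. CCN1, a matrix-associated YAP target, fell by 0.62 (SE 0.13, limma adjusted p = 0.019), and this call was lost in 3 of the 4 fits that left out 1 array. S1PR1, a sphingosine-1-phosphate receptor, was called lower, but it was above background on no array of either line, and the call was lost in all 4 such fits and when dim probe sets were left out. None of the 5 was called without replicate 1 of PC3-ML, and 2 and 3 were called without replicate 1 and without replicate 2 of PC3-ML (Clone 3).

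**Figure D4:**
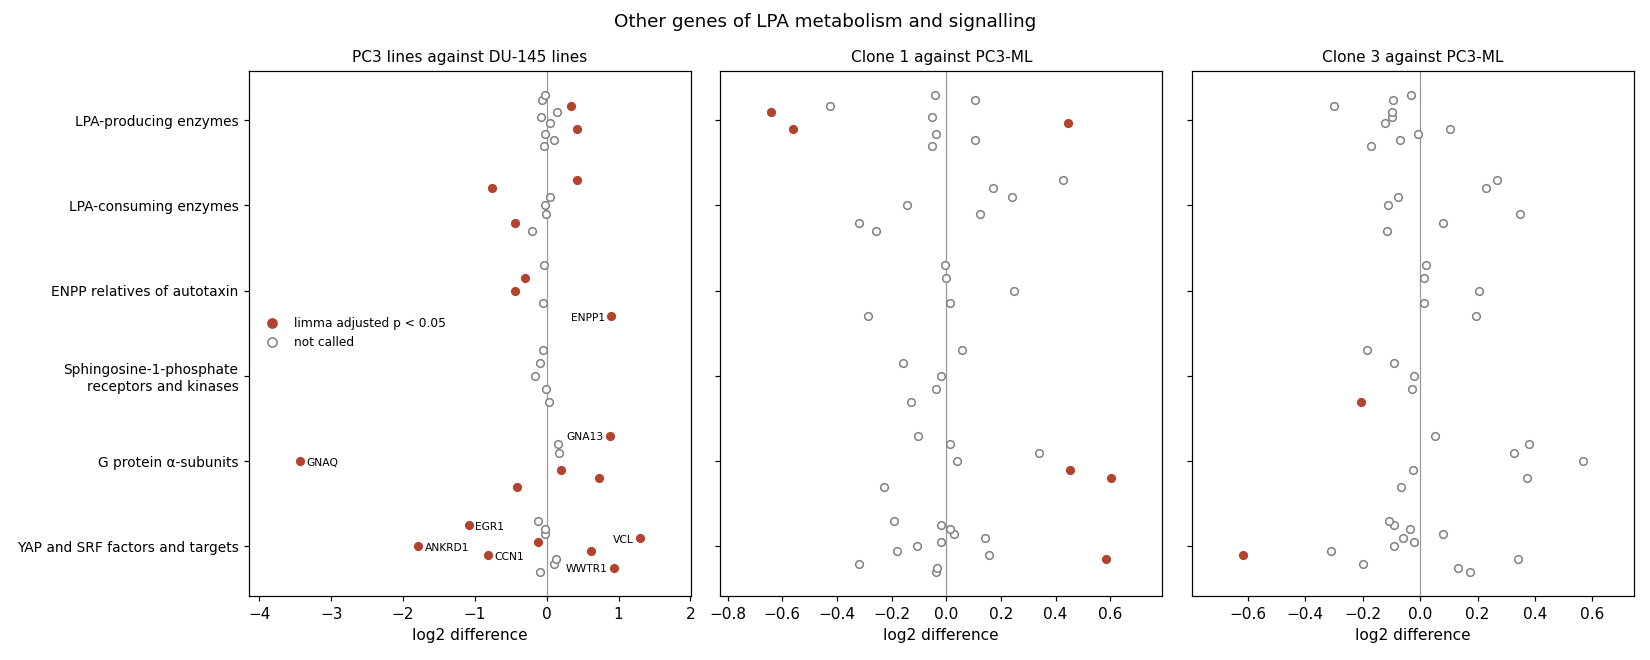
Differences on the log2 scale of other measured genes of LPA metabolism and signalling in 3 comparisons, grouped by role, with filled points for genes called by limma; the 3 horizontal axes differ in range. GNAQ lies far below the rest in PC3 lines against DU-145 lines, at -3.43, and the called G protein genes of PC3-ML (Clone 1) lie above 0.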

How the data were processed

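Total RNA was labelled with biotin and hybridised to 1-colour arrays, 2 for each of 7 lines. The deposited values are intensities on a linear scale made with RMA, per the submitters' processing notes; the version is not given in the sources used here. Of 28829 probe sets, 19291 had 1 gene symbol in the platform annotation, 1735 several and 7803 none in it; 19260 matched a RefSeq gene and 0 symbols changed. Of several probe sets for a gene (682 genes) the brightest on average was used, leaving 18372 genes.

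Intensities were put on the log2 scale with no pseudocount and fitted with limma 3.58.1 in R 4.3.3, with 1 mean per line over 14 arrays; tests were two-sided, adjusted by Benjamini-Hochberg over all genes and called under 0.05. Bone metastatic lines were set against the others over 7 line means. The code was tested on simulated data. No arrays held identical values.

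The LPA genes and pathway and marker lists were chosen with earlier results of these data known. Named pathway genes were, per list and comparison, up to 4 called genes with the largest differences, plus LPAR4 and PDGFRA. CTNNA1, PECAM1, the other marker genes and GNA11 were named after their values were seen. Some genes of the pathway lists, which enter the counts, are not reported here. Alternatives were quantile normalization, a filter on dim probe sets, the mean of all probe sets of a gene, a replicate block, a fit on line means and leaving out each array.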

Additional observations from a re-analysis of the deposited data

Results flagged for a closer look

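ENPP2 and PLPP1 were flagged because, with added PDGFRα, their arrays lay apart in opposite directions in the 2 cell lines. The share of all genes that meet this rule was not counted, so nothing is read from the flag. For ENPP2 the arrays read 21.3 and 21.6 in PC3-N(PDGFRα), against 21.6 and 22.2 in PC3-N, while they read 26.4 and 23 in DU-145 (PDGFRα), against 21.3 and 22.4 in DU-145. The log2 difference in PC3-N minus that in DU-145 was -0.21 (SE 0.09), and all these values were at background. For PLPP1 the same measure was -0.18 (SE 0.09), with lower arrays in PC3-N(PDGFRα) and higher arrays in DU-145 (PDGFRα). Limma, fitted to all genes, called neither gene for this difference. Beyond that fit the difference was not tested, since the genes were chosen with these values in view.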

How the results depend on the processing

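None of 41 called differences of the LPA genes and selected pathway genes changed sign under the alternatives, while 11 of the 45 differences of LPA genes that were not called did, 10 of them of LPAR2, LPAR6, PLPP1 or PLPP3 and 1 of ENPP2. With the fit on 7 line means, PC3 lines against DU-145 lines gave 3237 genes, 13 pathway genes and 1 of the LPA genes. The main fit gave 7133, 23 and 6. In the fit on line means the error comes from the spread between lines and not between arrays of a line. Fewer degrees of freedom also enter it. The filter on dim probe sets kept 13555 genes, left out ENPP2, and called 3 pathway genes in PC3-N(PDGFRα) against PC3-N, and 106 genes, 1 pathway gene and 1 LPA gene in PC3-ML against PC3-N. Quantile normalization called 0 LPA genes in DU-145 (PDGFRα) against DU-145 and 1 in PC3-ML (Clone 3) against PC3-ML; its splits of the LPA genes were 4 higher and 1 lower in PC3 lines (4 and 2 otherwise) and 1 and 1 in PC3-ML (Clone 1) (2 and 1 otherwise). The cause was not tested. Replicate numbers were not used to pair the arrays in the main fit. Over 21 pairs of lines, the deviations of same-numbered arrays correlated at -0.20 to 0.24, with 5 over 0.1. Whether arrays of some lines shared a batch was not tested. With the replicate numbers as a block, the fit called 2 pathway genes in PC3-N(PDGFRα) against PC3-N. It called 10 genes and 0 LPA genes in DU-145 (PDGFRα) against DU-145, and 42 genes in PC3-ML against PC3-N. Leaving out each array in turn, with its partner assumed to vary like the other lines, called 6370 to 6990 genes in PC3 against DU-145 lines, 71 to 404 in PC3-N(PDGFRα), 15 to 418 in DU-145 (PDGFRα), 26 to 249 for the difference between them, 12 to 170 in PC3-ML against PC3-N, 1213 to 1981 in PC3-ML (Clone 1), 431 to 1232 in PC3-ML (Clone 3) and 0 over line means. For pathway genes, in the same order, the ranges were 21 to 24, 0 to 2, 0, 0 to 1, 0 to 1, 3 to 6, 0 to 4 and 0. For LPA genes they were 5 to 6, 0 to 1, 0 to 1, 0 to 1, 0 to 1, 2 to 4, 0 and 0. Of the values of single LPA genes 569 stayed within the spread between arrays and 39 moved beyond it; of those of the selected pathway genes 360 kept their side of the threshold and 54 lost it. Every LPA gene had 1 probe set, so other probe sets gave no value. ENPP2, LPAR3 in 4 lines and LPAR6 in both DU-145 lines and PC3-ML (Clone 1) were not above background on any array, so changes there could not be sized.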
